A study of Homo sapiens with 75 samples.

Results

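BJ is a line of normal human skin fibroblasts, and its resting transcriptome was set here beside those of 4 transformed lines before any irradiation. The comparison used the 15 arrays labelled untreated at 0 h, out of 75 in the series: 3 of BJ, and 3 each of G361 (a melanoma line), HepG2 (a liver tumour line), TK6 (a lymphoblastoid line of B cell origin) and U2OS (an osteosarcoma line). The other arrays of the series are the same lines after a dose of 5 Gy of ionizing radiation or later untreated times. Per the labels, all lines were grown in DMEM with fetal calf serum, and controls were mock-irradiated, in BJ as in the lines it is set against. Whether lines were handled at the same time is not stated. Each line stands for 1 donor, and BJ is the 1 untransformed line, so tissue of origin, donor and transformation cannot be told apart. The labels do not say whether the BJ cells carried an added telomerase gene, nor whether the 3 arrays of a line came from separate cultures, so the p-values below measure the spread between arrays, which may be technical.

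Fibroblasts build and repair connective tissue. They secrete procollagen chains, which are hydroxylated, trimerised, cut and crosslinked into fibres, and they coat these fibres with proteoglycans and glycoproteins. Through integrins and actin stress fibres they pull on this matrix, and signals such as TGF-beta push them towards a contractile state. Normal fibroblasts also keep the G1 checkpoint and lack telomerase, whereas transformed lines have usually lost checkpoint genes and divide without limit.

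Values are array levels on the log2 scale, with 1 probe set for each of 19775 genes, and a difference is the BJ mean minus the mean of the 4 other line means, so 1 log2 stands for a factor of 2 in signal. In limma, an adjusted p under 0.05 counted as a call. Array medians ran from 3.92 to 4.03 log2, correlations between BJ arrays from 0.9896 to 0.9955, and correlations of BJ arrays with other lines from 0.7917 (TK6) to 0.8912 (HepG2). BJ replicate 1 differed from the other BJ arrays at several matrix genes, as their values below show. The ratio of 5 prime to 3 prime GAPDH control signal was -0.92 log2 in G361 replicate 1 and between -0.18 and 0.09 log2 in the other 14 arrays, BJ included. For ACTB the same control was -0.46 log2 in BJ replicate 1, the highest of the 15 arrays, and -1.07 and -1.04 log2 in BJ replicates 2 and 3. Its part in the values of BJ replicate 1 was not tested. No presence call was used, so a level under about 3.59 log2, the 40th percentile of all probe sets, is an array signal that does not show whether a transcript was present.

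The BJ arrays carried the identity their label gives. Of 17 fibroblast markers, 16 had their highest line mean in BJ, and the mean over the 17 ran from 10.71 to 10.89 log2 across the BJ arrays. In the other lines that mean reached 6.61 log2 in U2OS, 4.65 log2 in the HepG2-labelled arrays, 4.20 log2 in TK6 and 3.99 log2 in G361. All 8 melanocyte markers were highest in G361 and 9 of 10 B lymphoid markers in TK6, and in BJ the marker means lay between 3.96 and 4.29 log2 for melanocytes and between 3.63 and 3.79 log2 for B cells. Osteoblast markers did not mark U2OS: of 6, 1 was highest there, 3 in the HepG2-labelled arrays and 2 in TK6. Their mean was 5.165 to 5.187 log2 in U2OS, 5.107 to 5.178 log2 in the HepG2-labelled arrays and 4.38 to 4.64 log2 in BJ. Endothelial markers (3.41 to 3.51 log2 over 8 genes) and macrophage markers (3.16 to 3.48 log2 over 7 genes) were near the low end of the array in BJ. The arrays labelled HepG2 went against their label: the mean of 9 hepatocyte markers there was 3.69 to 3.78 log2, below the 4.04 to 4.50 log2 of U2OS, and ALB, the main plasma protein of hepatocytes, stood at 2.80 log2 in BJ and 2.91 log2 in the HepG2-labelled arrays. Values without these 3 arrays are therefore given wherever they matter, and no cell type is assigned to them here.

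Against the mean of the 4 lines, 9451 of 19775 genes were called, 47.8%: 4110 were higher in BJ (20.8%) and 5341 lower (27.0%). The median difference over all genes was -0.08 log2. Leaving out the HepG2-labelled arrays gave 4012 higher (20.3%) and 5425 lower (27.4%). Most of these calls did not hold against every line: 2982 were called in the same direction against all 4, and 2227 genes were called higher than one line and lower than another. A stricter class holds the genes called against each of the 4 lines and at least 1 log2 from each, and it had 777 genes highest in BJ (3.93%) and 466 lowest in BJ (2.36%). These shares of all genes are the background for class counts of the lists below. The same rule applied to the other lines gave 748 highest and 758 lowest genes in TK6, 540 and 202 in U2OS, 430 and 134 in G361, and 235 and 171 in the HepG2-labelled arrays. The 2 BJ classes are gene counts of 1 line, and with 1 line against 4 the smallest two-sided exact permutation p over lines is 0.2.

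The genes farthest above every other line included secreted proteins, a receptor, enzymes and a transcription factor. GREM1, a secreted antagonist of bone morphogenetic proteins, stood at 12.28, 12.19 and 12.22 log2 in BJ, against 2.26 to 3.08 log2 (median 2.45) in the 12 other arrays, a difference of 9.74 ± 0.15 log2 (SE; adjusted p = 1.19e-23, limma). POSTN, a matrix protein of connective tissue under load, stood at 12.47, 12.54 and 12.57 log2 in BJ, against 2.78 to 3.20 log2 (median 2.92), a difference of 9.59 ± 0.14 log2. COL1A2, the alpha-2 chain of type I collagen, had 13.57, 13.55 and 13.57 log2 in BJ, against 3.86 to 4.32 log2 (median 3.97), a difference of 9.51 ± 0.14 log2. In all of these the BJ arrays sat close together and far above every other array. MMP1, interstitial collagenase, had 11.39, 12.14 and 12.03 log2 in BJ, against 2.57 to 3.07 log2 (median 2.75), with BJ replicate 1 the lowest of its group. SULF1, which trims sulfate groups from heparan sulfate, had 12.54, 12.04 and 11.88 log2 in BJ, against 2.78 to 3.84 log2. The remaining genes of this set, with differences of 7.61 to 8.44 log2, were OXTR (oxytocin receptor), TNFRSF11B (osteoprotegerin, a decoy receptor for RANKL), UCHL1 (a ubiquitin hydrolase known from neurons), STMN2 (a microtubule regulator also known from neurons), PSG5 (a pregnancy-specific glycoprotein of a family with near-identical copies), MKX (a homeobox factor of tendon) and PTGS2 (inducible cyclooxygenase). PTGS2 had 10.10, 10.92 and 10.50 log2 in BJ, against 2.45 to 3.51 log2 (median 2.87) in the other arrays, and the groups did not overlap.

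The genes farthest below every other line were of mixed kinds. ZNF595, a zinc finger gene, had 2.43, 2.79 and 3.40 log2 in BJ, against 8.19 to 10.68 log2 (median 8.97) in the other 12 arrays, a difference of -6.38 ± 0.17 log2 (adjusted p = 1.40e-19, limma). NFIB, a transcription factor of the nuclear factor I family, had 3.24, 2.95 and 3.70 log2 in BJ, against 7.35 to 9.30 log2 (median 8.08), a difference of -4.89 ± 0.19 log2, and all 9 of its probe sets had the same sign. DSG2, a desmosomal cadherin, had 3.07, 3.97 and 3.76 log2 in BJ, against 7.15 to 9.97 log2 (median 9.32). These genes were at the low end of the array in BJ while each of the other lines had a clear signal. HOXB7, a homeobox gene of the HOXB cluster, had 3.38, 3.996 and 3.96 log2 in BJ, against 7.01 to 9.90 log2 (median 9.06), a difference of -4.94 ± 0.15 log2. TIAM1, an exchange factor for the small GTPase RAC, had 2.89, 2.68 and 3.15 log2 in BJ, against 6.26 to 9.01 log2 (median 7.42). GPAT3 (an acyltransferase of glycerolipid synthesis, -4.66 log2), STK26 (a protein kinase, -4.58 log2), RNF144A (a ubiquitin ligase, -3.96 log2), CRACD (-3.64 log2) and CAMK4 (a calcium-dependent kinase, -3.39 log2) completed the protein-coding genes, and DUXAP10, a pseudogene transcript (-5.39 log2), and TMEM132D-AS1, an antisense transcript (-5.97 log2), were the noncoding ones.

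**Figure D1:**
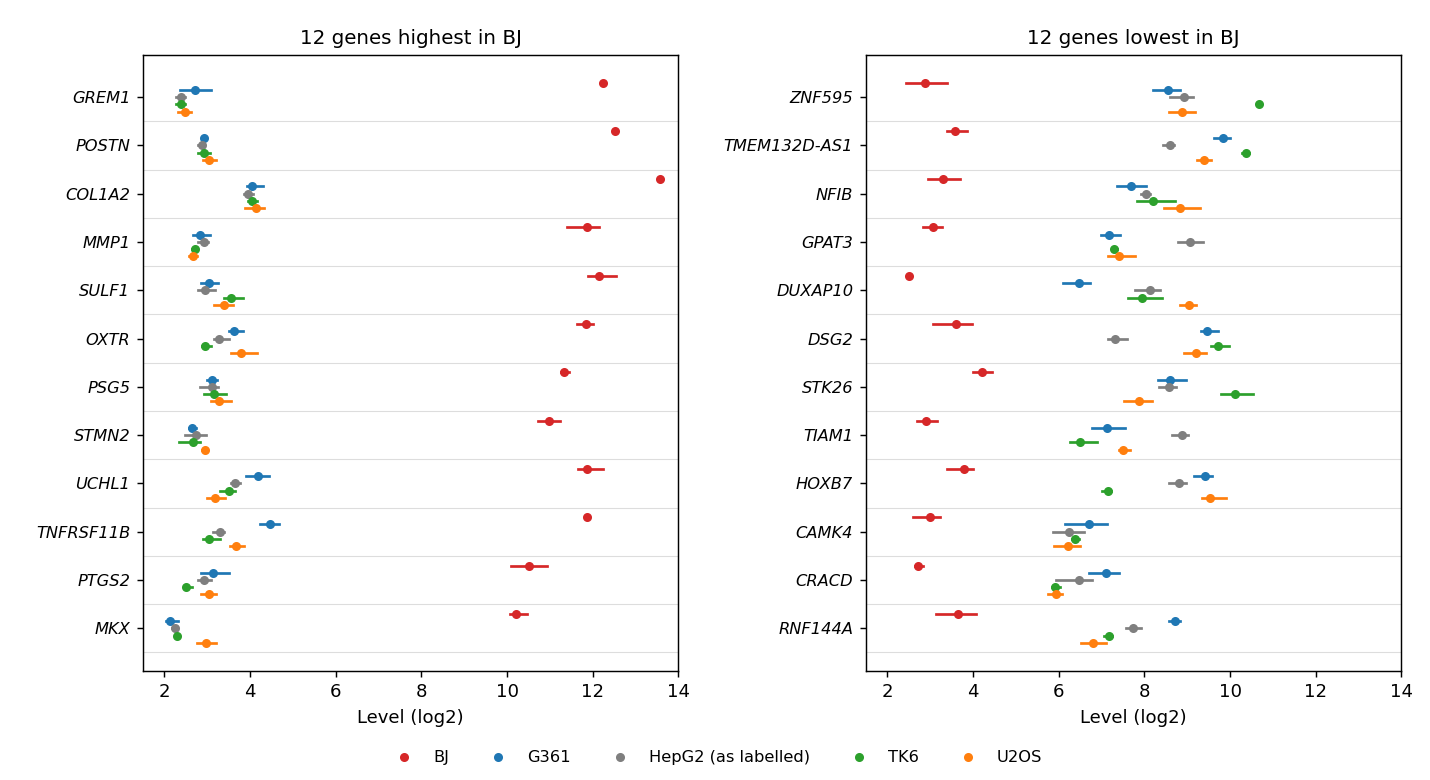
Levels (log2, horizontal axis) of the 12 genes farthest above and the 12 farthest below every other line in BJ; a dot is the mean of 3 arrays and a line spans the lowest to the highest array. BJ lies apart from all 4 other lines at each gene, for example GREM1 at 12.19 to 12.28 log2 in BJ against at most 3.08 log2 elsewhere.

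Among the fibroblast markers, 16 of 17 were called higher in BJ and 14 were in the highest class, with a median difference of 5.97 log2, set against -0.08 log2 over all genes. LUM, the collagen-binding proteoglycan lumican, had 11.63, 11.71 and 11.63 log2 in BJ, against 2.01 to 8.32 log2 (median 4.97) in the other 12 arrays, a difference of 6.65 ± 0.15 log2 (adjusted p = 4.05e-21, limma). U2OS came nearest at 7.99 log2, and without the HepG2-labelled arrays the difference was 5.68 log2. TWIST2, a basic helix-loop-helix factor of mesenchyme, had 10.53, 10.39 and 10.20 log2 in BJ, against 2.92 to 7.63 log2 (median 4.23), a difference of 5.60 ± 0.18 log2 (adjusted p = 4.30e-18). The HepG2-labelled arrays came nearest at 7.48 log2. COL1A1, the alpha-1 chain of type I collagen, was not called higher than in every line. It had 12.62, 12.71 and 12.95 log2 in BJ, against 2.35 to 12.36 log2 (median 5.70), a difference from the mean of 6.29 ± 0.28 log2 (adjusted p = 1.69e-15), but U2OS averaged 12.24 log2 and the BJ minus U2OS difference was not called (adjusted p = 0.26). Every BJ array still lay above every U2OS array for COL1A1, by 0.52 log2 between the means. The SE of that gap, 0.35 log2, pools all lines. COL1A1 SDs were 0.17 log2 in BJ, 0.13 log2 in U2OS and 1.22 log2 in the HepG2-labelled arrays. COL1A2 was thus called against U2OS and COL1A1 was not, on the probe sets used. Of 5 COL1A1 probe sets, 4 were higher in BJ.

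Most other fibroblast markers were higher in BJ too. PDGFRA, a receptor for platelet-derived growth factor, had 10.00, 10.38 and 10.28 log2 in BJ, against 2.52 to 5.64 log2 (median 2.82), a difference of 6.93 log2. DCN, the proteoglycan decorin, had 10.66, 9.60 and 9.59 log2 in BJ, against 3.46 to 4.50 log2 (median 3.75), with BJ replicate 1 the highest. COL3A1, type III collagen, had 12.74, 12.77 and 12.79 log2 in BJ, against 2.61 to 10.44 log2 (median 2.92). COL6A3, a chain of microfibrillar type VI collagen, had 12.28, 11.89 and 11.91 log2 in BJ, and the HepG2-labelled arrays averaged 11.20 log2, a gap of 0.83 log2 (adjusted p = 0.041). Without those arrays its difference was 7.02 log2, against 5.47 log2 with them. THY1 (4.67 log2), PDGFRB (3.91 log2), FAP (a membrane protease of activated fibroblasts, 4.80 log2), PRRX1 (a homeobox factor of limb mesenchyme, 5.97 log2), FBN1 (fibrillin-1, 5.38 log2), MFAP5 (a microfibril protein, 7.47 log2) and COL5A1 (4.93 log2) were also called higher. TCF21, a factor of visceral and cardiac fibroblasts, differed by 0.02 log2 and was not called (adjusted p = 0.925).

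Collagen chains were split between large increases and little change. Of 40 chains, 21 were called higher in BJ and 2 lower, with 15 in the highest class and a median difference of 1.07 log2, whereas 20.8% and 27.0% of all genes were called higher and lower. COL8A1, a short-chain collagen of vessel walls and cornea, had 11.92, 12.01 and 11.89 log2 in BJ, against 2.45 to 7.83 log2 (median 3.81) in the other arrays, a difference of 7.46 log2. COL15A1, a collagen of the basement membrane zone, had 11.24, 10.81 and 10.78 log2 in BJ, against 2.97 to 4.77 log2. Both lay above every array of the other lines. COL12A1, which lies on the surface of collagen fibrils, differed by 6.62 log2. COL11A1, a fibril chain known best from cartilage, had 10.39, 10.32 and 10.23 log2 in BJ, and U2OS was the nearest line with 7.58 log2. Both chains that fell belong to cartilage type IX collagen: COL9A3 differed by -1.50 log2, with G361 at 9.13 log2, and COL9A2 by -1.14 log2. The count of 2 lower chains was 4 without G361 and also 4 without U2OS replicate 1.

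The enzymes that fold, process and crosslink collagen rose with the chains. Of 29 measured, 23 were called higher (79.3%, beside 20.8% of all genes) and 2 lower (6.9%, beside 27.0%), with a median difference of 1.33 log2. ADAMTS2, the procollagen N-proteinase, had 10.60, 10.34 and 10.33 log2 in BJ, against 3.31 to 4.55 log2 (median 3.71), a difference of 6.65 log2. LOX, lysyl oxidase, which starts the crosslinks, had 11.43, 11.71 and 11.59 log2 in BJ, against 2.43 to 8.76 log2 (median 5.65), a difference of 6.00 log2. The LOX groups did not overlap, although U2OS (8.62 log2) and the HepG2-labelled arrays (8.37 log2) had signal. LOXL1 (4.68 log2), LOXL2 (4.46 log2), PCOLCE (an enhancer of procollagen C-proteinase, 3.58 log2), P4HA2 (a prolyl 4-hydroxylase subunit, 3.19 log2) and SERPINH1 (the collagen chaperone HSP47, 3.09 log2) were also higher. PCOLCE2 (-2.99 log2) and ADAMTS3 (-0.47 log2) were called lower, a count of 2 that lay between 1 and 4 as single replicates were left out.

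Matrix glycoproteins had the broadest shift of the matrix lists. Of 42, 34 were called higher (81%, beside 20.8% of all genes) and the median difference was 3.39 log2. The highest class held 25, beside 3.93% of all genes. THBS1, the adhesive glycoprotein thrombospondin-1, had 11.97, 12.18 and 12.11 log2 in BJ, against 3.70 to 6.45 log2 (median 5.48) in the other arrays, a difference of 6.79 log2, and all 7 of its probe sets had the same sign. ELN, tropoelastin, the precursor of elastic fibres, had 11.40, 10.35 and 10.53 log2 in BJ, against 3.79 to 4.44 log2 (median 4.08), with BJ replicate 1 the highest. FN1, fibronectin, had 13.45, 12.93 and 12.98 log2 in BJ, against 5.55 to 12.04 log2 (median 10.94), a difference of 3.34 log2. FN1 was thus higher in BJ than in each line even though only TK6, at 5.67 log2, was low. THBS2 (7.09 log2), NID2 (a basement membrane linker, 6.63 log2), MGP (an inhibitor of calcification, 5.65 log2) and FBLN1 (fibulin-1, 5.64 log2) also rose. TNXB was the 1 gene called lower, by -0.42 log2, and this count ran from 0 to 2 with single arrays left out and was 3 without the HepG2-labelled arrays.

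Of 27 proteoglycans, 16 were called higher (59.3%, beside 20.8% of all genes) and 1 lower (3.7%, beside 27.0%), with a median difference of 0.57 log2. ASPN, asporin, a small leucine-rich proteoglycan, had 9.24, 9.03 and 8.80 log2 in BJ, against 2.40 to 2.87 log2 (median 2.69), a difference of 6.37 log2. BGN, biglycan, had 10.16, 9.16 and 9.42 log2 in BJ, against 3.66 to 4.51 log2 (median 4.09), a difference of 5.53 log2. The groups did not overlap at either gene. The 1 gene called lower was GPC4, a glypican of the cell surface, by -0.82 log2, and 10 were not called. Matrix proteases and their inhibitors gave 20 higher (62.5%) and 3 lower (9.38%) of 32, with a median of 1.24 log2. CTSK, the collagen-degrading cathepsin K, had 11.54, 10.87 and 10.95 log2 in BJ, against 3.23 to 4.58 log2 (median 4.09), a difference of 7.14 log2. MMP3, stromelysin-1, had 10.80, 11.92 and 11.72 log2 in BJ, against 3.61 to 7.35 log2 (median 4.96). BJ replicate 1 was the lowest of the BJ arrays for MMP3, as for MMP1. ADAMTS1 (5.68 log2), ADAMTS5 (4.96 log2) and MMP2 (gelatinase A, 3.88 log2) also rose. MMP9 (gelatinase B, -2.30 log2) and MMP8 (neutrophil collagenase, -1.25 log2) were among the 3 lower, a count that was 5 without the HepG2-labelled arrays.

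**Figure D2:**
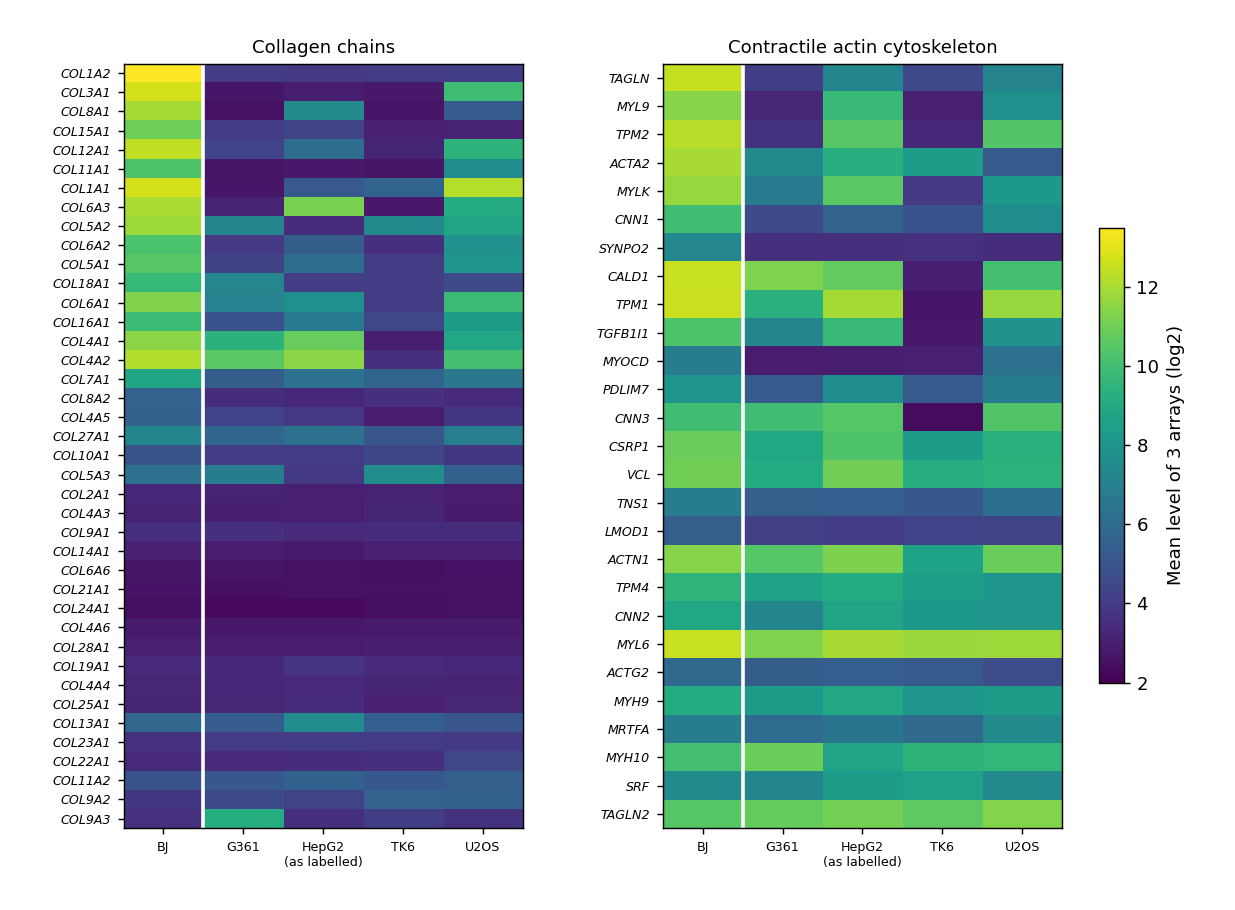
Mean levels (log2, colour scale, mean of 3 arrays) of collagen chains and contractile genes in each line, with BJ in the leftmost column. COL1A2 is high in BJ alone, COL1A1 is high in BJ and U2OS, and TAGLN reaches 12.20 to 13.03 log2 in BJ arrays against at most 7.99 log2 elsewhere.

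The contractile actin genes were higher than the mean of the 4 lines almost throughout, though less so against the HepG2-labelled arrays. Of 27, 25 were called higher (92.6%, beside 20.8% of all genes) and 2 lower (7.41%, beside 27.0%). The median difference was 1.65 log2, and 9 were in the highest class, beside 3.93% of all genes. Against G361, 22 were higher (18.2% of all genes), and against the HepG2-labelled arrays 16 (20.2%), with 2 lower in each case. Against TK6, 25 were higher (20.8%) and 1 lower, and against U2OS 23 (18.9%) and 2. TAGLN, the actin-binding protein transgelin of smooth muscle, had 13.03, 12.26 and 12.20 log2 in BJ, against 3.89 to 7.99 log2 (median 5.83), a difference of 6.73 ± 0.20 log2 (adjusted p = 6.79e-19, limma). ACTA2, smooth muscle alpha-actin and the usual marker of myofibroblasts, had 12.02, 11.97 and 12.05 log2 in BJ, against 4.75 to 9.21 log2 (median 7.92), a difference of 4.47 log2 with 2 of 3 probe sets higher. MYLK, myosin light chain kinase, had 11.82, 11.70 and 11.71 log2 in BJ, against 3.73 to 10.75 log2 (median 7.48), a difference of 4.41 log2. MYLK was closest in the HepG2-labelled arrays, at 10.55 log2, and its difference without them was 5.49 log2. MYL9 (myosin regulatory light chain, 5.46 log2), TPM2 (beta-tropomyosin, 5.30 log2), CNN1 (calponin, 4.26 log2), CALD1 (caldesmon, 3.75 log2), SYNPO2 (3.75 log2) and MYOCD (the coactivator myocardin, 3.02 log2) were higher too. SRF, the factor that binds CArG boxes, was lower by -0.43 log2, and TAGLN2 by -0.52 log2. 1 of these lower calls was lost without BJ replicate 2, without BJ replicate 3, and without the HepG2-labelled arrays.

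The CArG box is the DNA motif that SRF binds in many smooth muscle genes, and promoters of RefSeq genes (GRCh38.p14, 250 bases before to 50 after each annotated start) were searched for it on both strands. Of 27195 genes with a promoter, 437 held one (1.61%). Of the 25 contractile genes called higher, 22 had a promoter and 6 held one (27.3%): ACTG2, ACTN1, CNN2, MYLK, TGFB1I1 and TPM4. None of the 15 collagen genes called higher that had a promoter held one. At a share of 1.61% of all genes, this does not set so short a list apart. The contractile genes have more annotated starts per gene (45 promoters for 22 genes, against 34961 for all 27195), so shares were also taken over promoters. On that count the CArG box was in 13.3% of contractile promoters, against 1.30% of all promoters. The motif TATAAA was in 13.3% of contractile and 26.3% of the 19 collagen promoters, against 11.5% of all, so the contractile share was close to that of all promoters. The motif CANNTG, bound by basic helix-loop-helix factors such as TWIST2, was in 27 of the 45 contractile promoters and 47.4% of collagen promoters, against 68.7% of all, so the contractile share was below that of all promoters, whereas over genes it was 81.8%, against 73.0% of all genes. A match is a description of the letters and not of a bound site. Only members called higher were searched, so these shares describe the lists and cannot be tied to the calls. A promoter annotated to MYLK, chr3:123620499-123620798 on the minus strand, is shown, picked because it holds the motif. Its CArG box is in capitals and begins 94 bases before that annotated start. Which MYLK transcript begins there, and whether the probe set above reads it, was not tested.
MYLK: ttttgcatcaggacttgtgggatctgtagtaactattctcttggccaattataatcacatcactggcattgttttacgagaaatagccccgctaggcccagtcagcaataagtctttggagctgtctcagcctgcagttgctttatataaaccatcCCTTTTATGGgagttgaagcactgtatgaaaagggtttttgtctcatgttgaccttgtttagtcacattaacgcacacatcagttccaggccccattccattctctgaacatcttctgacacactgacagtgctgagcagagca

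Caveolae, the membrane pits that flatten under stretch, gave 6 higher (66.7%, beside 20.8% of all genes) and 1 lower (11.1%, beside 27.0%) of 9 measured genes. CAVIN3, a coat protein, had 10.67, 10.24 and 10.23 log2 in BJ, against 2.74 to 8.66 log2 (median 3.07), a difference of 6.02 log2, with G361 the nearest line. CAV1, the main structural protein, had 11.92, 12.40 and 12.28 log2 in BJ, against 7.44 to 11.78 log2 (median 10.26), a difference of 2.28 log2. CAV1 was thus well expressed in other lines and still highest in BJ, although U2OS at 11.44 log2 was within 1 log2. CAV2 (3.94 log2), EHD2 (3.41 log2), CAVIN1 (2.94 log2) and CAVIN2 (0.61 log2) were also called higher, and PACSIN2 lower (-0.54 log2). CAVIN4 (-0.21 log2) and CAV3 (-0.22 log2), the muscle forms, were not called. CAVIN4 was called, and the lower count 2, without G361 replicate 3, without TK6 and without the HepG2-labelled arrays.

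Integrins, the receptors for matrix, showed no common direction. Of 25, 11 were called higher (44%, beside 20.8% of all genes) and 9 lower (36%, beside 27.0%), with a median of 0.03 log2. ITGA11, the alpha chain of a fibroblast collagen receptor, had 9.09, 7.43 and 7.56 log2 in BJ, against 3.73 to 4.24 log2 (median 3.82), a difference of 4.14 log2, and was the 1 integrin of the highest class. Chains of fibronectin and vitronectin receptors lay on both sides: ITGA5 (2.08 log2), ITGAV (1.66 log2), ITGB5 (2.27 log2), ITGB1 (1.26 log2) and the alpha-4 chain ITGA4 (2.86 log2) were higher than the mean, and ITGB3 (-0.71 log2) and ITGA8 (-0.40 log2, 1 of 4 probe sets of that sign, not called without the HepG2-labelled arrays) were lower. Several of the lower ones had a high level in 1 line, as with ITGB2, the leukocyte beta chain (-2.13 log2, TK6 at 9.15 log2), ITGB8 (-2.65 log2, G361 at 10.52 log2) and ITGA7 (-1.46 log2, G361 at 8.15 log2). Without TK6, 5 integrins were lower.

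Of 15 cadherins, the calcium-dependent adhesion proteins, 3 were called higher and 4 lower, close to the 20.8% and 27.0% of all genes, so the list as a whole did not stand out. CDH11, the mesenchymal osteoblast cadherin, had 11.03, 11.05 and 10.84 log2 in BJ, against 2.46 to 9.60 log2 (median 4.23), a difference of 5.86 log2. CDH2, N-cadherin, had 11.44, 11.98 and 11.72 log2 in BJ, against 4.44 to 10.34 log2 (median 9.62), a difference of 3.23 log2. Both were in the highest class. CDH3 was higher by 0.48 log2, a call lost without BJ replicate 1 or without BJ replicate 3. CDH1, E-cadherin of epithelia, was lower by -1.37 log2, with 2.81 log2 in BJ, 2.43 log2 in the HepG2-labelled arrays and 2.88 log2 in U2OS. CDH18 (-1.27 log2), CDH19 (-0.83 log2) and CDH12 (-0.49 log2) were each lower than the mean through a single line, U2OS for CDH18 and CDH12 and G361 for CDH19. The other 8, namely CDH24 (0.21 log2), CDH17 (0.20 log2), CDH8 (0.07 log2), CDH16 (0.02 log2), CDH5 (-0.06 log2), CDH6 (-0.12 log2), CDH15 (-0.12 log2) and CDH10 (-0.19 log2), were not called; CDH17 was called without BJ replicate 2. Epithelial keratins did not follow the E-cadherin direction. KRT18, a simple-epithelium keratin, had 11.44, 11.31 and 11.44 log2 in BJ, against 3.83 to 10.94 log2 (median 7.31), a difference of 4.04 log2, and KRT19 had 6.34, 5.87 and 6.04 log2 in BJ, against 2.54 to 3.09 log2 (median 2.89), a difference of 3.23 log2. These keratins were the 2 epithelial markers called higher of 13, with 5 lower, and the mean of the 13 in BJ was 4.39 to 4.52 log2. Only 1 of the 2 KRT19 probe sets was higher in BJ. KRT7 was not called on the probe set used (-0.04 log2), while the highest of its 4 probe sets differed by 3.60 log2.

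Transcription factors of mesenchyme followed the markers. Of 48, 28 were called higher (58.3%, beside 20.8% of all genes) and 8 lower (16.7%, beside 27.0%). The highest class held 14, and the median difference was 1.09 log2. TBX5, a T-box factor of heart and forelimb, had 9.79, 8.88 and 8.88 log2 in BJ, against 2.83 to 3.74 log2 (median 3.12), a difference of 6.03 log2. TBX3, its relative, had 9.80, 10.84 and 10.54 log2 in BJ, against 3.83 to 6.21 log2 (median 5.58), a difference of 5.08 log2. Both sat above every other array. KLF4 (4.80 log2), OSR2 (4.53 log2), FOXF1 (a forkhead factor of visceral mesenchyme, 4.28 log2) and TWIST1 (3.89 log2) were also higher. EBF1, a factor of B cells and fat precursors, was lower by -2.68 log2, and MEOX1 by -1.40 log2.

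HOX genes, whose clusters record position along the body, did not move as 1 group. Of 39 HOX genes, 28 had a value here. HOXA2 was the only HOXA gene among them, so nothing can be said of the HOXA cluster. Of the 28, 4 were called higher (14.3%, beside 20.8% of all genes) and 10 lower (35.7%, beside 27.0%), with a median of -0.29 log2. The higher genes were all 5 prime members of the HOXC and HOXD clusters. HOXD10 had 7.83, 7.67 and 7.51 log2 in BJ, against 3.19 to 7.39 log2 (median 3.99), a difference of 3.01 ± 0.16 log2 (adjusted p = 5.56e-14, limma), with U2OS close at 7.30 log2. HOXC10 (2.25 log2), HOXD11 (1.31 log2) and HOXC11 (1.18 log2) were the others, and without U2OS 7 HOX genes were higher. The lower genes were mostly of the HOXB cluster: HOXB7 (-4.94 log2), HOXB6 (-2.36 log2), HOXB2 (-2.11 log2), HOXB9 (-1.42 log2), HOXB4 (-0.91 log2) and HOXB13 (-0.65 log2). HOXC4 (-1.19 log2), HOXD8 (-0.79 log2), HOXC5 (-0.72 log2) and HOXD1 (-0.49 log2) were lower as well. HOXB2 was at -1.26 log2 without the HepG2-labelled arrays. HOXB13 lost its call without BJ replicate 2 or without BJ replicate 3, HOXD1 without BJ replicate 2, and HOXD8 without BJ replicate 3.

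The 14 HOX genes that were not called lay between -0.36 and 0.47 log2. They were HOXC13 (0.47 log2), HOXD9 (0.30 log2), HOXD13 (0.13 log2), HOXD12 (0.04 log2), HOXC6 (0.01 log2), HOXC12 (-0.06 log2), HOXB1 (-0.07 log2), HOXC9 (-0.22 log2), HOXA2 (-0.23 log2), HOXB8 (-0.26 log2), HOXB5 (-0.32 log2), HOXC8 (-0.35 log2), HOXD4 (-0.35 log2) and HOXB3 (-0.36 log2). Several of these changed with the arrays used, HOXC13 and HOXC8 being called without BJ replicate 1, HOXB8 without BJ replicate 3, and HOXA2 and HOXD4 without the HepG2-labelled arrays. HOXC6 was 0.69 log2 without U2OS and -0.92 log2 without TK6, so its mean difference combined opposite gaps. On the plot of HOX levels, BJ combines low HOXB7 with a HOXD10 level that among the other lines only U2OS approached.

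**Figure D3:**
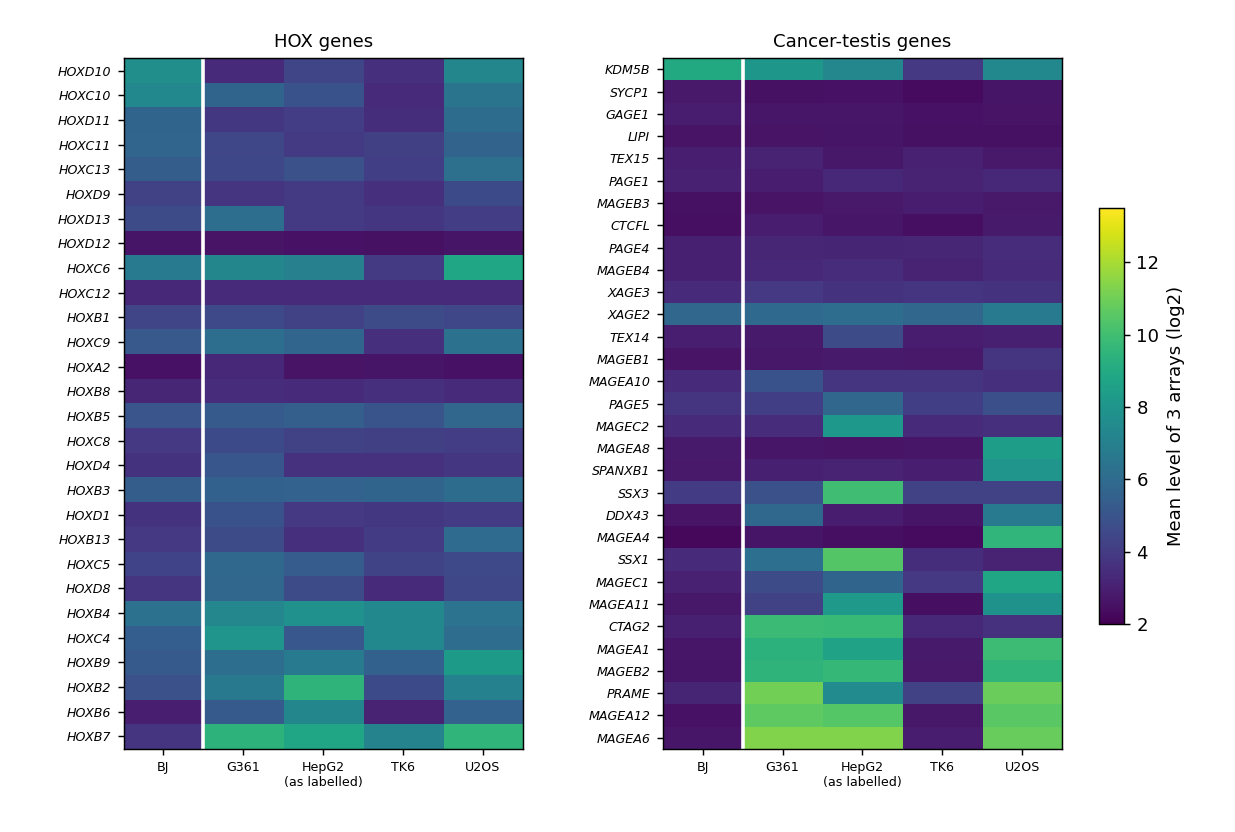
Mean levels (log2, colour scale, mean of 3 arrays) of 28 HOX genes and 31 cancer-testis genes in each line, with BJ in the leftmost column. HOXB7 is low in BJ alone, HOXD10 is high in BJ and U2OS, and MAGEA6 is low in BJ and TK6 and above 10 log2 in the other 3 lines.

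Secreted signals were raised selectively. Of 7 insulin-like growth factor binding proteins, 6 were called higher (85.7%, beside 20.8% of all genes), with a median of 5.04 log2. The highest class held 5, beside 3.93% of all genes. IGFBP3, the main carrier of these factors in serum, had 13.02, 13.10 and 13.03 log2 in BJ, against 3.39 to 9.30 log2 (median 4.08), a difference of 7.78 log2, with G361 nearest. IGFBP5, which also binds matrix, had 12.46, 12.75 and 12.56 log2 in BJ, against 3.49 to 9.10 log2 (median 3.77), a difference of 7.53 log2, with U2OS nearest. These 2 stood above every other array. IGFBP4 (5.71 log2), IGFBP6 (5.04 log2) and IGFBP7 (3.9997 log2) followed. IGFBP2 was higher by 0.43 log2, a call lost in most settings with arrays left out (0.14 log2 without BJ replicate 1), and IGFBP1 differed by 0.04 log2 and was not called.

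TGF-beta and BMP signalling genes gave 27 higher (65.9%, beside 20.8% of all genes) and 7 lower (17.1%, beside 27.0%) of 41, with a median of 0.67 log2. INHBA, the activin A subunit, had 10.84, 10.99 and 10.88 log2 in BJ, against 2.80 to 8.57 log2 (median 6.59), a difference of 5.01 log2. FSTL1 (4.81 log2) and the BMP target genes ID1 (3.41 log2) and ID2 (3.32 log2) were higher, while the receptors BMPR1B (-1.79 log2) and ACVR2B (-1.65 log2) were lower. The ID genes were thus higher in the same arrays that held the BMP antagonist GREM1 at its 9.74 log2 difference. The lower count was 4 without the HepG2-labelled arrays. Of 46 growth factors and receptors, 25 were higher (54.3%) and 6 lower (13%, under the 27.0% of all genes), with a median of 0.62 log2. EREG, the EGF-family ligand epiregulin, had 7.69, 8.15 and 7.04 log2 in BJ, against 2.12 to 2.65 log2 (median 2.34), a difference of 5.29 log2. PDGFC (4.76 log2), FGF2 (4.46 log2), VEGFC (4.38 log2), the receptor EGFR (4.21 log2) and KITLG (4.10 log2) also rose, and LIF was lower by -2.08 log2.

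WNT ligands, receptors and inhibitors gave 14 higher (43.8%, beside 20.8% of all genes) and 6 lower (18.8%, beside 27.0%) of 32, with a median of -0.01 log2. DKK1, an extracellular WNT inhibitor, had 12.05, 12.11 and 12.17 log2 in BJ, against 2.48 to 8.35 log2 (median 2.91), a difference of 7.99 log2. WNT5A, a ligand of the beta-catenin-independent branch, had 11.10, 11.71 and 11.60 log2 in BJ, against 3.67 to 9.43 log2 (median 5.84), a difference of 5.26 log2. BJ was above every other array at both genes. The inhibitor DKK3 (5.87 log2), the ligand WNT5B (4.85 log2) and the receptor FZD7 (4.13 log2) were higher too. FZD3 (-2.98 log2), the nuclear effector LEF1 (-2.23 log2) and FZD5 (-1.90 log2) were lower. Cytokines and chemokines lay on both sides, with 12 higher (38.7%) and 10 lower (32.3%) of 31 and a median of 0.00 log2. PTGS1 (constitutive cyclooxygenase, 6.00 log2), the complement proteases C1S (5.74 log2) and C1R (3.56 log2) and CXCL12 (3.02 log2) were higher, and CCL20 was lower by -2.19 log2.

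DNA replication genes were lower almost throughout. Of 45 genes of replication and S phase, 43 were called lower in BJ (27.0% of all genes were) and 33 were in the lowest class, with a median difference of -1.99 log2. Against single lines, 43 were lower than in G361 (22.1% of all genes), 43 than in the HepG2-labelled arrays (20.0%), 42 than in TK6 (25.4%) and 44 than in U2OS (24.9%), so no single line carried the result. In bulk RNA, fewer cells in S phase and less RNA per cell cannot be told apart. Among the factors that mark origins, ORC1 had 3.90, 4.14 and 4.11 log2 in BJ, against 7.17 to 7.95 log2 (median 7.45), a difference of -3.42 ± 0.14 log2 (adjusted p = 7.12e-16, limma). CDC6, which loads the MCM helicase, had 5.72, 5.42 and 5.58 log2 in BJ, against 7.81 to 8.99 log2 (median 8.27), a difference of -2.82 log2. MCM10, an activator of that helicase, had 5.20, 5.82 and 5.76 log2 in BJ, against 7.61 to 9.91 log2 (median 8.99), a difference of -3.33 log2. In each case every BJ array was below every array of the 4 other lines. PRIM1, the primase subunit that starts new strands, had 6.19, 6.50 and 6.52 log2 in BJ, against 9.03 to 10.64 log2 (median 9.76), a difference of -3.40 log2. GINS1, of the replicative helicase, had 6.53, 7.21 and 7.15 log2 in BJ, against 9.17 to 9.91 log2 (median 9.53), and POLE2, of DNA polymerase epsilon, had 5.26, 6.15 and 5.91 log2 in BJ, against 7.53 to 9.76 log2 (median 8.13). BJ replicate 1 was the lowest of the BJ arrays in MCM10, PRIM1, GINS1 and POLE2. The kinase CDC7 (-2.88 log2), the repressor E2F8 (-2.86 log2), the sliding clamp PCNA (-1.32 log2) and the activator E2F1 (-1.04 log2) were lower too. RFC5, a clamp loader subunit, was called higher (0.67 log2, 1 of 3 probe sets of that sign, and not called without TK6), and TK1, thymidine kinase, differed by -0.15 log2 and was not called.

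E2F factors bind motifs such as TTTCGCGC and TTTGGCGC in promoters of replication genes. These letters, a choice made after the replication values were known, were searched for on both strands of the same RefSeq promoters. Of all 27195 genes with a promoter, 382 held one (1.40%). Of the 43 replication genes called lower, 37 had a promoter and 14 held one (37.8%; over promoters 29.2%, against 1.15% of all): CDC6, DTL, E2F1, E2F2, GINS1, MCM2, MCM3, MCM6, MCM7, POLA1, POLA2, POLE, POLE2 and UHRF1. None of the 22 contractile or 15 collagen genes with a promoter held one, and none of the 37 replication genes held a CArG box. With these motifs in only 1.40% and 1.61% of all genes, an absence in such short lists does not set them apart. The 37.8% describes a list whose members were nearly all called lower, and its other members were not searched. It therefore cannot be tied to the calls. The promoters of CDC6 (chr17:40287629-40287928, plus strand), GINS1 (chr20:25407423-25407722, plus strand) and POLE2 (chr14:49688165-49688464, minus strand) are shown because their levels are given above and each holds a single match close to the annotated start. Capitals mark the match, which in GINS1 and POLE2 reads on the opposite strand. It begins at base 8 counted from the start in CDC6, at base 6 in GINS1, and 5 bases before the start in POLE2.
CDC6: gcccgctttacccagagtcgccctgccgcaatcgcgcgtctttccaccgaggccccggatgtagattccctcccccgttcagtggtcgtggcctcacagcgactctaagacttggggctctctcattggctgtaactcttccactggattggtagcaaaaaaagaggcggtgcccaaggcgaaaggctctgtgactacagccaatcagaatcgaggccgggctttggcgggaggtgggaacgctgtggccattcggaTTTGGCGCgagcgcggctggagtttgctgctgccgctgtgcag
GINS1: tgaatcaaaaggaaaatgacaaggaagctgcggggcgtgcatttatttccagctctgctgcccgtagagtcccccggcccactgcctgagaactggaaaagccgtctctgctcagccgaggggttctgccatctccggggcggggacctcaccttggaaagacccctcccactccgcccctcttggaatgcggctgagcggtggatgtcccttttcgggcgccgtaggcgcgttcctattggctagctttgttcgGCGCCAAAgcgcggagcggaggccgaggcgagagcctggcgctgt
POLE2: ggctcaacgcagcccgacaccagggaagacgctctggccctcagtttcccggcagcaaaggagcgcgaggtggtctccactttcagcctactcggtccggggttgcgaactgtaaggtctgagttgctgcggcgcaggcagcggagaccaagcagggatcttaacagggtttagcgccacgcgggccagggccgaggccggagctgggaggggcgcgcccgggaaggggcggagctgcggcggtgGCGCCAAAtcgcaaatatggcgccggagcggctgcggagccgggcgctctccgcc

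Genes of G2 and mitosis were lower as well. Of 50, 49 were called lower (98%, beside 27.0% of all genes), with a median difference of -1.38 log2. The lowest class held 22, beside 2.36% of all genes. Against G361, 39 were lower (22.1% of all genes), and against the HepG2-labelled arrays 47 (20.0%). Against TK6 the count was 45 (25.4%), and against U2OS 47 (24.9%). SPC25, of the outer kinetochore, had 6.23, 6.72 and 6.65 log2 in BJ, against 8.35 to 9.83 log2 (median 8.61), a difference of -2.29 log2. MYBL2 (a cell cycle transcription factor, -2.13 log2), NUF2 (-1.93 log2), UBE2C (-1.91 log2), the spindle checkpoint genes MAD2L1 (-1.89 log2) and BUB1 (-1.84 log2), and the kinases AURKB (-1.79 log2) and PLK1 (-1.78 log2) were the largest others. CDK1 was lower by -1.64 log2 and TOP2A by -1.66 log2. MKI67, the antigen used to score proliferating cells, was an exception in order: it had 7.16, 7.25 and 7.27 log2 in BJ, against 6.94 to 9.63 log2 (median 8.18), and U2OS, at 6.98 log2, was not above BJ. ANLN, an actin-binding protein of cytokinesis, differed by -0.19 log2 and was not called.

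**Figure D4:**
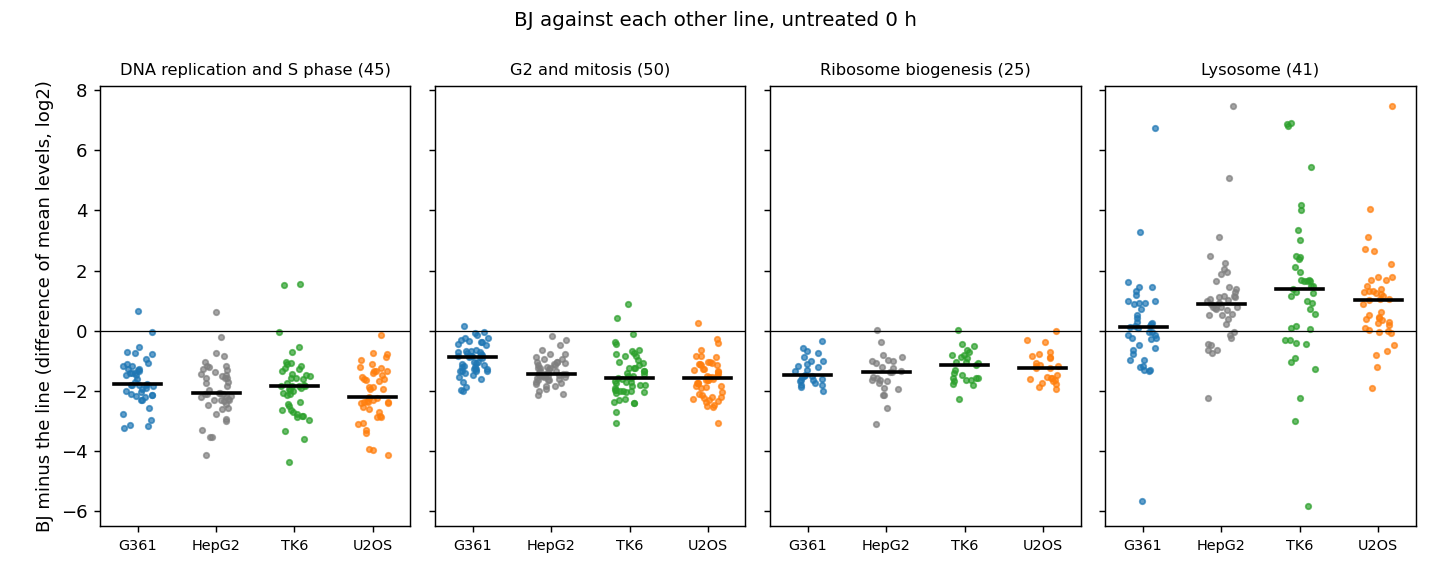
Difference in level (log2, BJ minus each line, vertical axis) for every gene of 4 lists: replication (45 genes), mitosis (50), ribosome biogenesis (25) and lysosome (41); a dot is a gene and a bar the median. The first 3 lists lie mostly below 0 against each of the 4 lines, and the lysosome list lies mostly above 0 except against G361.

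G1 and senescence control genes were split, 8 higher and 8 lower of 22 (36.4% each, beside 20.8% and 27.0% of all genes). CDKN2A, which encodes the inhibitors p16 and p14ARF, had 7.54, 7.39 and 7.20 log2 in BJ, against 3.94 to 6.64 log2 (median 4.19), a difference of 2.67 ± 0.16 log2 (adjusted p = 5.42e-13, limma), although 1 of its 3 probe sets had the opposite sign. CDKN1A, the inhibitor p21, had 10.74, 10.39 and 10.51 log2 in BJ, against 8.38 to 9.63 log2 (median 9.21), a difference of 1.44 log2. BJ lay above all 12 arrays for both inhibitors. CCND1, cyclin D1, had 10.22, 10.67 and 10.74 log2 in BJ, against 2.43 to 10.08 log2 (median 8.34), a difference of 3.24 log2 and 4.10 log2 without the HepG2-labelled arrays. CDKN2B (1.77 log2), CDKN1C (1.71 log2), RBL2 (a pocket protein of resting cells, 0.69 log2), CDKN1B (p27, 0.42 log2) and CDK6 (0.37 log2) were the others called higher than the mean. None of these was called higher than every line. CDKN2B was lower than in G361 (-1.63 log2, adjusted p = 7.81e-06, limma). Neither CDKN1C against G361 nor RBL2 against TK6 was called. CDKN1B lost its call without BJ replicate 2. Without the HepG2-labelled arrays CDKN1B was at -0.02 log2 and not called (adjusted p = 0.905), and 3 of 7 CDK6 probe sets had the sign of its call. CCND2, cyclin D2, had 4.22, 4.34 and 4.14 log2 in BJ, against 2.80 to 10.00 log2 (median 8.47), a difference of -3.16 log2, with G361 below BJ at 2.84 log2. LMNB1, the nuclear lamina protein whose loss marks senescent fibroblasts, had 6.74, 7.02 and 6.71 log2 in BJ, against 8.38 to 9.85 log2 (median 9.46), a difference of -2.50 log2. LMNB1 was in the lowest class.

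RBL1 (-2.03 log2), CDK2 (-1.33 log2), CDK4 (-1.06 log2), MDM4 (-0.79 log2), HMGA1 (-0.68 log2) and CDKN2D (-0.45 log2) were lower, the last losing its call without any 1 of the BJ arrays and without the HepG2-labelled ones. HMGA2 (0.00 log2), E2F3 (-0.11 log2), MDM2 (-0.19 log2), RB1 (-0.24 log2), CCND3 (-0.27 log2) and E2F4 (-0.33 log2) were not called. HMGA2 combined opposite gaps, with -2.50 log2 to the HepG2-labelled arrays and 1.75 log2 to TK6, and without the HepG2-labelled arrays it was called higher, at 0.84 log2. E2F4 was called without BJ replicate 1 and without G361 replicate 1, and CCND3 without HepG2 replicate 1. Without U2OS, 13 of the 22 were lower. Of 43 p53 target genes, 17 were higher (39.5%, beside 20.8% of all genes) and 12 lower (27.9%, beside 27.0%), with a median of 0.09 log2. Members thus lay on both sides in these unirradiated arrays, with the lower share near that of all genes and the higher share above it. DRAM1, an autophagy regulator, had 10.62, 10.84 and 10.89 log2 in BJ, against 6.53 to 8.38 log2 (median 7.58), a difference of 3.35 log2. ATF3, a stress-induced factor, had 4.08, 4.86 and 4.57 log2 in BJ, against 5.28 to 8.24 log2 (median 6.91), a difference of -2.36 log2. TNFRSF10D (a decoy death receptor, 3.59 log2) and TP53INP1 (1.85 log2) were higher, and CYFIP2 (-2.22 log2), PMAIP1 (the cell death gene NOXA, -1.99 log2) and DDB2 (a damage recognition factor, -0.92 log2) were lower.

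Double-strand break repair followed replication rather than the p53 targets. Of 35 genes, 29 were called lower (82.9%, beside 27.0% of all genes) and 1 higher (2.86%, beside 20.8%). The lowest class held 8, beside 2.36% of all genes, and the median was -0.98 log2. BLM, the Bloom syndrome helicase of homologous recombination, had 4.95, 5.37 and 5.82 log2 in BJ, against 7.53 to 8.87 log2 (median 8.03), a difference of -2.73 log2. EXO1, which resects DNA ends, had 5.31, 5.49 and 6.02 log2 in BJ, against 7.53 to 8.73 log2 (median 7.93), a difference of -2.39 log2. BRCA1, a recombination mediator, had 5.96, 6.48 and 6.49 log2 in BJ, against 7.61 to 8.67 log2 (median 8.10), a difference of -1.88 log2. All 3 genes were below every other array in BJ. RAD54L (-1.97 log2), POLQ (of end joining by microhomology, -1.82 log2) and PARP1 (-1.66 log2) were also lower. TP53BP1, which favours end joining, was the 1 called higher, with 8.73, 8.60 and 8.34 log2 in BJ, against 6.59 to 8.43 log2 (median 8.16), a difference of 0.67 log2 and 0.32 log2 without the HepG2-labelled arrays. ATM, the kinase that signals breaks, differed by 0.15 log2 and was not called. The higher count was 2 without G361 replicate 1 and without HepG2 replicate 2. Replication and mitosis genes were lower in the same arrays, and their part in these levels was not tested.

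Ribosome biogenesis genes were lower in BJ for 24 of 25 (96%, beside 27.0% of all genes), with a median of -1.30 log2. The lowest class held 10, beside 2.36% of all genes. Against G361, 25 were lower (22.1% of all genes), against the HepG2-labelled arrays 24 (20.0%), and against TK6 and U2OS 23 each (25.4% and 24.9%). LYAR, a nucleolar protein, averaged 6.60 log2 in BJ, against 8.33 to 9.71 log2 in the 4 other line means, a difference of -2.21 log2. NOP16 (-1.97 log2), POLR1B (the second subunit of RNA polymerase I, -1.76 log2), NOP58 (of box C/D small nucleolar particles, -1.76 log2), NOP2 (a ribosomal RNA methylase, -1.61 log2), WDR12 (-1.53 log2), FBL (the methylase fibrillarin, -1.50 log2) and RRP12 (-1.46 log2) were next. POLR1A, the largest subunit of that polymerase, was -0.31 log2 and not called, though it was called without the HepG2-labelled arrays (-0.42 log2). MYC, the growth regulator whose product drives many of these genes, had 7.54, 7.52 and 7.42 log2 in BJ, against 8.44 to 10.88 log2 (median 9.62), a difference of -2.16 log2. MYC was in the lowest class, with the HepG2-labelled arrays nearest at 8.51 log2.

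Genes that normal somatic cells keep silent were low in BJ, but not in BJ alone. Of 31 cancer-testis genes, 20 were called lower (64.5%, beside 27.0% of all genes) and 2 higher (6.45%, beside 20.8%), while 1 was in the lowest class. MAGEA6, an X-linked testis antigen, had 2.56, 2.62 and 2.93 log2 in BJ, and averaged 11.31 log2 in G361, 11.34 log2 in the HepG2-labelled arrays, 10.82 log2 in U2OS and 2.87 log2 in TK6, a difference of -6.38 log2. Its probe set is of a type that can match related MAGE transcripts. PRAME, an antigen of melanoma, had 2.90, 3.23 and 3.49 log2 in BJ, against 4.11 to 11.19 log2 (median 9.33), a difference of -5.23 log2, and was the 1 gene of the lowest class. MAGEA12 (-6.02 log2), MAGEB2 (-5.21 log2), MAGEA1 (-4.98 log2) and CTAG2 (-3.62 log2) were lower as well. KDM5B, a histone demethylase with wide expression, was higher at 8.76, 9.11 and 9.07 log2 in BJ, against 3.76 to 8.14 log2 (median 7.38), a difference of 2.31 log2. GAGE1 was called higher by 0.25 log2, and that call was lost without BJ replicate 1 or without BJ replicate 3, among other left-out arrays, which left 1 higher gene.

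Among 18 oncofetal and stemness genes, 8 were lower (44.4%, beside 27.0% of all genes) and 2 higher (11.1%, beside 20.8%). LIN28B, which blocks let-7 maturation, had 2.72, 2.17 and 2.43 log2 in BJ, against 3.74 to 9.48 log2 (median 7.24), a difference of -4.55 log2. IGF2BP1 (-1.50 log2) and the imprinted gene PEG3 (-1.49 log2) were lower, PEG3 through U2OS. MEST, another imprinted gene, had 6.14, 4.90 and 5.32 log2 in BJ, against 2.37 to 2.79 log2 (median 2.56), a difference of 2.87 log2, and IGF2BP2 was higher by 0.71 log2, but -0.55 log2 without TK6. MEST was therefore above all 12 arrays, with BJ replicate 1 the highest. Of 13 telomerase and telomere genes, 6 were lower (46.2%) and 2 higher (15.4%). TERT, the catalytic subunit of telomerase, had 4.22, 4.35 and 4.50 log2 in BJ, against 4.11 to 6.12 log2 (median 5.15), a difference of -0.80 log2 (adjusted p = 6.34e-04, limma). U2OS, a line known to keep its telomeres without telomerase, averaged 4.52 log2, and its gap to BJ was not called (adjusted p = 0.62). The telomerase RNA-protein genes WRAP53 (-0.98 log2), GAR1 (-1.03 log2) and NHP2 (-0.86 log2) and the shelterin genes ACD (-1.18 log2) and POT1 (-0.52 log2) were lower. The shelterin genes TINF2 (0.56 log2) and TERF2IP (0.54 log2) were higher, and ATRX (0.23 log2), TERF2 (0.00 log2), TERF1 (-0.10 log2), NOP10 (-0.12 log2) and DAXX (-0.21 log2) were not called. TERF1 was called lower, at -0.42 log2, without the HepG2-labelled arrays.

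Most genes of glycolysis and sterol synthesis were lower in BJ than the mean of the 4 lines. Of 22 glycolysis genes, 15 were called lower (68.2%, beside 27.0% of all genes) and 2 higher (9.09%, beside 20.8%), with a median of -0.53 log2. Line by line, 12 were lower and 1 higher than in G361, and 16 lower and 2 higher than in TK6. Against the HepG2-labelled arrays 8 were lower and 5 higher, and against U2OS 9 and 3, so most were not lower there. ENO1, enolase, had 11.32, 11.45 and 11.27 log2 in BJ, against 12.37 to 13.00 log2 (median 12.57), a difference of -1.31 log2, and 3 of its 4 probe sets had that sign. ENO2, the neuronal enolase, had the largest difference of the list, with 5.47, 5.15 and 5.25 log2 in BJ, against 5.50 to 9.45 log2 (median 8.28), a difference of -2.63 log2 (adjusted p = 2.21e-12, limma). Both enolases were below all 12 other arrays in BJ. PFKFB4 (-1.31 log2) was lower than the mean, but not called against the HepG2-labelled arrays (-0.21 log2) or U2OS (-0.09 log2). The glucose transporter SLC2A1 (0.65 log2) and hexokinase HK1 (0.64 log2) were higher, and LDHA (0.09 log2) was not called. Only 1 was higher without BJ replicate 1. Of 19 cholesterol synthesis genes, 14 were called lower (73.7%, beside 27.0% of all genes), with a median of -0.86 log2. HMGCS1, the HMG-CoA synthase of the pathway, had 6.28, 6.89 and 6.51 log2 in BJ, against 7.60 to 8.83 log2 (median 8.32), a difference of -1.75 log2. HSD17B7 (-1.97 log2) and ACAT2 (-1.63 log2) were lower too. All 3 act in sterol synthesis. The lysosome list moved the other way, with 31 of 41 genes higher (75.6%, beside 20.8% of all genes) and 6 lower (14.6%, beside 27.0%). Its median was 0.81 log2, and CTSK had the largest difference of the list. It was higher than in the HepG2-labelled arrays for 30 genes (20.2% of all genes), than in TK6 for 28 (20.8%) and than in U2OS for 25 (18.9%), but than in G361 for 14 (18.2%), with 12 lower there. SGSH, which degrades heparan sulfate, had 8.26, 8.58 and 8.72 log2 in BJ, against 4.99 to 7.57 log2 (median 5.58), a difference of 2.61 log2. CTSO (2.64 log2), CTSB (cathepsin B, 2.41 log2), SMPD1 (acid sphingomyelinase, 2.29 log2) and LGMN (legumain, 2.22 log2) were higher too. CTSH, cathepsin H, was the 1 lysosomal gene of the lowest class, with 4.33, 4.49 and 5.05 log2 in BJ, against 6.26 to 10.52 log2 (median 8.54), a difference of -3.91 log2.

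**Figure D5:**
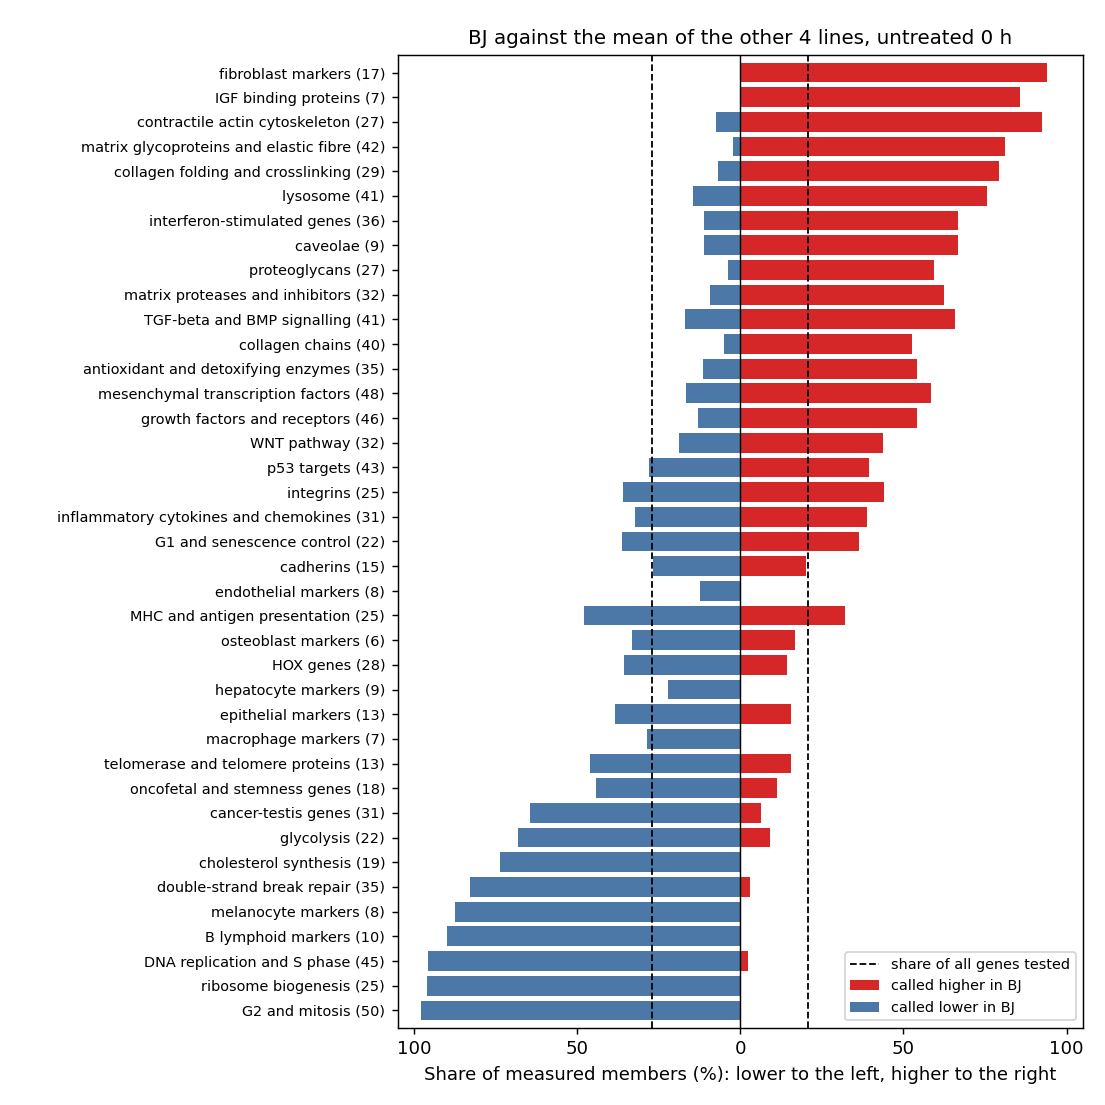
Percent of each list's measured genes called higher or lower in BJ than the mean of the 4 other lines (horizontal axis, percent); the dashed lines mark the 20.8% higher and 27.0% lower among all 19775 genes. Matrix and contractile lists lie to the higher side, and mitosis, replication and ribosome biogenesis to the lower side.

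The same contrast was made on the untreated arrays of 3 h and 6 h, which are separate arrays of the same lines. At 3 h, 4054 genes were higher in BJ (20.5%) and 5128 lower (25.9%), and at 6 h 4168 (21.1%) and 5780 (29.2%). Of the 777 genes highest in BJ at 0 h, 695 were in that class at 3 h, 89.4% of the 0 h genes and 86.1% of the 807 found at 3 h. At 6 h, 698 were, 89.8% of the 0 h genes and 88.4% of 790. Of the 466 lowest genes, 401 were in that class at 3 h, 86.1% of the 0 h genes and 71.7% of 559, and 427 at 6 h, 91.6% of the 0 h genes and 67.5% of 633. All 777 and all 466 were called in the same direction against the mean at both later times. Replication genes were lower for 44 of 45 at each time (medians -2.23 and -2.26 log2), and mitotic genes for 50 of 50 (-1.76 and -1.77 log2). Fibroblast markers stayed at 16 higher of 17 and contractile genes at 25 higher of 27 at each time. Other lists held less well. Of the 17 glycolysis genes called at 0 h, 12 were called the same way at 3 h and 16 at 6 h, with list medians of -0.32 and -0.44 log2, beside -0.53 log2 at 0 h. Of the 14 cholesterol synthesis genes, 11 were called the same way at each later time, with medians of -0.55 and -0.53 log2, beside -0.86 log2 at 0 h. Each later contrast sets BJ against the same 4 lines at that time.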

How the data were processed

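RNA of 75 samples was measured on single-sample oligonucleotide arrays with 54675 probe sets. The deposited values are log2 levels, summarised by the authors using RMA, per the submitters' processing notes. Its version and whether all arrays were normalized together are not given in the sources used here. Values ran from 1.64 to 13.99 log2, and 0 pairs of arrays were identical. No depth applies to arrays; their number, 3 per line, limits the precision.

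Probe sets were named through the reference table: 41097 had 1 symbol, 1801 several and 11777 were unnamed here, and the last 2 kinds were left out. Where a gene had several probe sets (10523 of 19775 genes), the one brightest on average across all 75 arrays stood for it. 5 group means were fitted to the 15 untreated 0 h arrays in R 4.3.3 with limma 3.58.1 (eBayes with trend), and BJ minus the mean of the 4 other means, and BJ minus each line, were tested with no level filter. Benjamini-Hochberg adjustment ran over all 19775 genes, with calls under 0.05. The fit was checked on simulated data. The contrast was repeated at 3 h and 6 h.

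The members, the 39 gene lists (1085 genes) and the tests were chosen with earlier results of these data known, and the lists come from general knowledge. Named genes are the 12 with the largest gap to the nearest line on each side, leaving out sex-specific genes, the fibroblast markers, up to 8 called members of each list by size of difference (every member of the HOX, caveolae, IGF binding protein, cadherin, G1 and telomere lists), and members not called or of opposite sign, said to be so. A few called members beyond these 8 (CDK1, TOP2A, PCNA, E2F1 and FN1 among them) were picked for familiarity after their values were seen. Promoter letters are from RefSeq, GRCh38.p14.

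Alternatives were another variance trend, quantile normalization, the mean of probe sets, a filter at the 40th percentile of level, 1 fit of all 75 arrays, a fold minimum, and leaving out each line, replicate or array. Replicate numbers are shared between lines. Deviations of same-numbered BJ and TK6 arrays correlated at 0.117, 0.106 and 0.177, above 0.1 in all 3 pairs, but those of BJ with the other 3 lines did not reach 0.1 in every pair, so the fit has no replicate block and the blocked fit is an alternative. Any handling batch by line cannot be told apart from line.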

Additional observations from a re-analysis of the deposited data

How the results depend on the processing

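Limits: each line is 1 donor, 3 arrays of unstated origin stand for it, the HepG2-labelled arrays lack hepatocyte markers, and no presence call was used. Of 12380 alternative values for 431 results, 364 concerned counts that answer a comparison, and 352 of these stayed within 1.5 times and 12 moved. With a minimum of 1 log2, the genes higher in BJ numbered 2013 against G361, 2198 against the HepG2-labelled arrays, 2680 against TK6, 2122 against U2OS and 2045 against the mean. The lower ones numbered 2067, 1787, 2575, 2457 and 1831 in the same order. With no fold minimum, 1499 genes were highest and 1483 lowest in BJ. Leaving out single arrays, replicates or lines gave 3461 to 4236 genes higher and 4130 to 5461 lower than the mean, 753 to 802 highest and 430 to 518 lowest. Against single lines it gave 2833 to 3881 higher and 3236 to 4501 lower for G361, 3258 to 4115 and 2857 to 4267 for HepG2, 3418 to 4224 and 4122 to 5168 for TK6, and 2978 to 3906 and 3862 to 5047 for U2OS. At 3 h the ranges were 3510 to 4096 and 3835 to 5233, and at 6 h 3562 to 4157 and 4978 to 5391. Using the mean of all probe sets kept 580 of the 777 highest and 320 of the 466 lowest genes in their class, and quantile normalization kept 742 and 455.

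With a replicate block in the fit, 431 of 431 results kept their direction and call: 4146 genes were higher and 5452 lower than the mean, 777 highest and 466 lowest.

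Among single genes and list counts, 11739 values kept direction and call, 70 lost and 61 gained a call, and 128 counts moved by over 1.5 times. The sign turned in 16 genes. Without TK6, CD37 was 0.047 log2, CD79B 0.0078, HLA-DPB1 0.38, PTPRC 0.034, TERF2 0.36, HMGA2 -0.58, HOXC6 -0.92 and IGF2BP2 -0.55. Without U2OS, CDH12 was 0.20 log2, EPCAM 0.16, PEG3 0.00028 and HMGA2 -0.52. Without G361, ESRP1 was 0.29 log2, MLANA 0.016 and TYR 0.046. Without the HepG2-labelled arrays, CDKN1B was -0.022 log2, and with the mean of probe sets CDK6 was -0.011 and HMGA2 -0.27. The cause was not tested.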

Other observations

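Interferon-stimulated genes, the antiviral set, were higher in untreated BJ cells for 24 of 36 (66.7%, beside 20.8% of all genes). They were lower for 4 (11.1%, beside 27.0%), with a median difference of 1.38 log2 and 9 genes of the highest class. IFIT1, which binds foreign RNA caps, had 8.38, 8.49 and 8.57 log2 in BJ, against 3.30 to 7.03 log2 (median 4.45) in the 12 other arrays, a difference of 3.71 log2. IFITM3, a membrane protein that blocks viral entry, had 13.05, 12.33 and 12.46 log2 in BJ, against 5.82 to 10.96 log2 (median 9.42), on a probe set that can match its relatives. XAF1, a cell death factor, had 7.87, 6.94 and 6.81 log2 in BJ, against 2.37 to 4.75 log2 (median 2.76). These genes separated BJ from every other array. IFITM1 did not, since TK6 averaged 10.83 log2 beside 10.77 log2 in BJ. MX1 (2.44 log2) and ISG15 (2.20 log2) were higher, and ISG20 (-2.38 log2), BST2 (-1.68 log2) and OAS1 (-1.49 log2) were lower. The 4 lower genes were 8 without BJ replicate 2, 8 without U2OS, and 7 without the HepG2-labelled arrays. At 3 h and at 6 h, 23 were higher.

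Antigen presentation differed by line. Of 25 genes, 8 were higher than the mean (32%, beside 20.8% of all genes) and 12 lower (48%, beside 27.0%). Higher and lower counts were 12 and 5 against G361 (18.2% and 22.1% of all genes) and 9 and 6 against the HepG2-labelled arrays (20.2% and 20.0%). Both of these lower counts were near the share of all genes. Against U2OS the counts were 14 and 3 (18.9% and 24.9%), and against TK6 they were 0 and 22 (20.8% and 25.4%). Against the mean, 5 were higher without the HepG2-labelled arrays and 4 lower without TK6. HLA-B, a class I heavy chain, had 12.004, 11.59 and 11.66 log2 in BJ, against 8.14 to 12.87 log2 (median 9.53), a difference of 1.70 log2, with TK6 above BJ at 12.75 log2. HLA-DRA, a class II chain of B cells, differed by -2.29 log2 through TK6, at 12.12 log2. PSMB9, an inducible proteasome subunit, was in the lowest class, with 6.36, 6.77 and 6.45 log2 in BJ, against 7.51 to 10.76 log2 (median 7.84), a difference of -1.90 log2. PSMB9 was thus lower than in each of the 4 lines, and HLA-B was lower than in TK6 and higher than in the other 3. HLA genes vary between donors, and the part of probe mismatch in their values was not tested.

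Antioxidant and detoxifying enzymes gave 19 higher (54.3%, beside 20.8% of all genes) and 4 lower (11.4%, beside 27.0%) of 35. The median was 0.49 log2, and 2 were lower without replicate 2 of every line. ALDH1A1, a retinaldehyde dehydrogenase, had 8.61, 8.38 and 7.91 log2 in BJ, against 2.30 to 3.60 log2 (median 2.78), a difference of 5.51 log2. AKR1C3, a ketosteroid reductase, had 3.29, 3.02 and 3.47 log2 in BJ and averaged 8.68 log2 in U2OS and 6.98 log2 in TK6, a difference of -2.44 log2.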
